A study of Zea mays with 12 samples.

Results

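Nitrogen deficiency was compared with full supply across the genes of maize roots. The comparison used 6 of 12 RNA-seq libraries, 3 from roots under nitrogen (N) deficiency and 3 from control roots, which had normal N together with a normal supply of phosphorus (P) and of potassium (K). Of 37385 genes in the deposited table, 23379 had at least 0.5 FPKM (a fragment count divided by transcript length and by library depth) in at least 3 of the 6 libraries, and these were tested. All plants were 40 days old and of DengHai605, which the labels give as an inbred line. Total RNA came from roots. The other 6 libraries, from roots under K and P deficiency, were used where N deficiency is set directly against another shortage. The libraries of a group carry the labels 1_3, 4_6 and 7_9, and values per library are given in that order. The sources used here do not tie these labels to separate plants, so p-values measure the spread between these libraries, which may be technical.

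Plant roots take up nitrate through high-affinity NRT2 carriers, which work with a NAR2 partner protein, and through carriers of the NPF family. Nitrate is reduced to nitrite by nitrate reductase in the cytosol. In plastids nitrite reductase, which carries a siroheme cofactor and draws electrons from ferredoxin, makes ammonium. Glutamine synthetase and glutamate synthase then bring ammonium into amino acids, and asparagine serves as a store and transport form of nitrogen.

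The libraries held 17254154 to 17913702 recovered reads in N deficiency and 17843853 to 18465979 in the control. Pearson's r across genes was 0.968 to 0.979 between N deficiency libraries, 0.962 to 0.972 between control libraries and 0.863 to 0.92 between the groups. Between 5 and 13 genes per library were listed at 0 FPKM although they held at least 50 reads, so a listed 0 can be a failed estimate. Of 6 genes that mark root tissue 5 were tested, and none passed the test in limma, at an unadjusted p under 0.05, with voom or in the authors' deposited table, while 1 was called higher without N deficiency replicate 7_9. Their summed level was 595, 966 and 100 FPKM in N deficiency, against 142, 359 and 220 FPKM in the control, with replicate 7_9 of N deficiency lowest. The root cap gene RCP1 had 353, 425 and 69.1 FPKM in N deficiency, against 66.7, 86.8 and 96.2 FPKM in the control, and SCR, which patterns the ground tissue of roots, had 12.5, 8.16 and 7.39 FPKM in N deficiency, against 11.8, 4.66 and 13.6 FPKM in the control. Of 40 genes that mark leaf tissue 24 were too low to be tested, and the 16 tested summed to 22, 14.5 and 21.5 FPKM in N deficiency, against 80.7, 65.0 and 74.7 FPKM in the control, with 6 of them lower. Of 50 genes that mark seed and embryo 29 were too low to be tested, among them all 21 zein genes. Of the zein genes 18 were at 0 in all 6 libraries. The 21 seed and embryo genes tested summed to 314, 326 and 272 FPKM in N deficiency, against 1839, 1221 and 1184 FPKM in the control. Of these 10 were lower and 1 was higher.

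Under N deficiency 1840 genes were higher and 1847 were lower than in the control at an adjusted p under 0.05, together 15.8% of the genes tested (7.87% higher, 7.9% lower; limma on log2(FPKM + 1), Benjamini-Hochberg adjustment). All log2 fold changes here are on that scale, N deficiency over control, with the standard error after ±, and they understate the change of genes with low values. The decreases reached further than the increases. Increases past 32-fold were in 2 genes (0.00855%), LOC103636218 and LOC103626139. LOC103626139 has no description and had 229, 85.1 and 60.5 FPKM in N deficiency, against 0.214, 0.961 and 0.725 FPKM in the control. Decreases past 32-fold were in 46 genes (0.197%). Above 4-fold, 189 genes were higher (0.808%) and 380 lower (1.63%), and above 8-fold 37 were higher (0.158%) and 180 lower (0.77%). The libraries of the groups did not overlap in 1839 of the higher and in all 1847 of the lower genes, and over all tested genes this held for 18% in the higher and 16.8% in the lower direction. The genes that were lower held 4.32% of all FPKM in N deficiency, against 16.2% in the control, while those that were higher held 11.3% in N deficiency, against 4.73% in the control. Leaving out control replicate 1_3 gave 820 higher genes, leaving out N deficiency replicate 4_6 gave 928, and leaving out N deficiency replicate 1_3 gave 1058. The count of lower genes was 1052 without control replicate 1_3 and 1098 without N deficiency replicate 4_6.

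**Figure D1:**
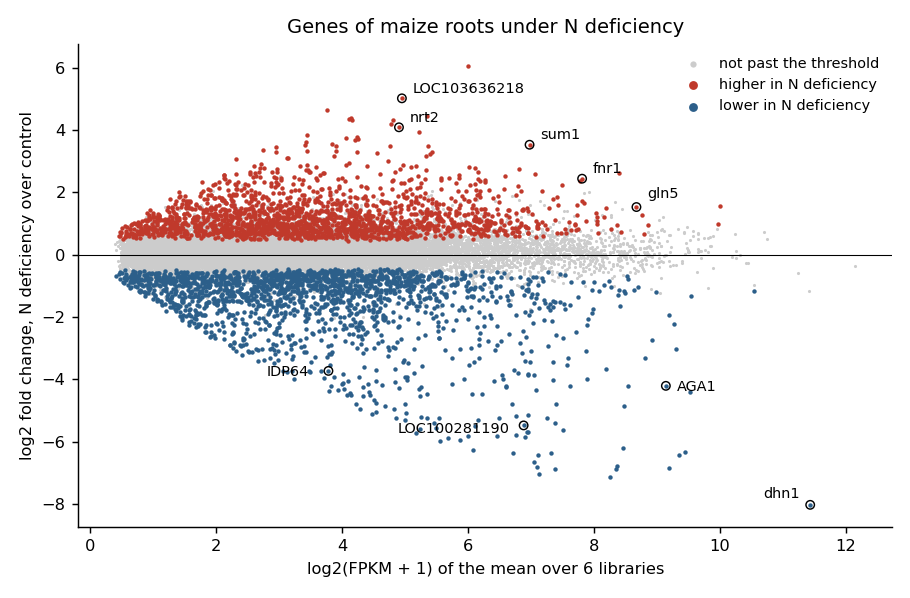
Each point is 1 of 23379 tested genes: the x axis is log2(FPKM + 1) of the gene's mean over the 6 libraries and the y axis its log2 fold change, N deficiency over control. Red genes (1840) were higher and blue genes (1847) lower at an adjusted p under 0.05. Circles mark genes named in the text, from LOC103636218 at 5.02 to dhn1 at -8.03.

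Some of the largest increases were in genes for high-affinity nitrate uptake. The NRT2 gene nrt2 had 58.6, 59.5 and 48.4 FPKM in N deficiency, against 2.65, 2.65 and 1.74 FPKM in the control (log2 fold change 4.09 ± 0.17, adjusted p = 5.97e-05). Its neighbour nrt2.2 had 40.2, 33.7 and 25.4 FPKM in N deficiency, against 1.55, 1.46 and 1.85 FPKM in the control (log2 fold change 3.68 ± 0.19, adjusted p = 9.29e-05). LOC103636218, which has no description and is annotated with nitrate transport and the nitrogen metabolism pathway, had 75.4, 46.3 and 55.4 FPKM in N deficiency, against 0.997, 0.558 and 0.898 FPKM in the control (log2 fold change 5.02 ± 0.21, adjusted p = 5.97e-05). For these 3 genes every N deficiency library lay far above every control library. The genes nrt2 and nrt2.2 lie next to each other in the RefSeq gene order of the B73 NAM-5.0 assembly and are near copies by name, so the authors' counting could have split reads between them, and the level of each alone is uncertain.

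The partner genes of the NRT2 carriers moved in opposite directions. NAR2.1 was already abundant in the control and rose, with 323, 341 and 296 FPKM in N deficiency, against 107, 97.2 and 109 FPKM in the control (log2 fold change 1.61 ± 0.15, adjusted p = 0.000818). NAR2.2 fell, with 2.93, 4.77 and 18.1 FPKM in N deficiency, against 70.2, 46.5 and 34.5 FPKM in the control (log2 fold change -2.71 ± 0.56, adjusted p = 0.0182), and the libraries did not overlap although N deficiency replicate 7_9 stood well above the other two. NAR2.2 no longer passed without N deficiency replicates 1_3 or 4_6 or without control replicate 1_3. Among carriers of the NPF family, which move nitrate, peptides and other compounds, LOC100383742 (NPF8.3 type) averaged 58.1 ± 8.52 FPKM in N deficiency and 13.2 ± 6.52 FPKM in the control and LOC100192842 (NPF5.2 type) averaged 11 ± 3.94 FPKM in N deficiency and 1.57 ± 0.484 FPKM in the control (SD, n = 3 each), and both rose. A second NPF5.2 type, LOC100191837, rose with a log2 fold change of 0.84, and LOC100383435 (NPF5.8 type) with 1.17. Both lost the call without N deficiency replicates 1_3, 4_6 or 7_9 or control replicate 1_3, and the NPF5.8 type also without control replicates 4_6 or 7_9. LOC100383494 (NPF6.2 type) fell and had 0.0498, 0.0523 and 0 FPKM in N deficiency, against 3.44, 7.71 and 10.5 FPKM in the control. In the whole nitrate uptake list 7 of 21 tested members rose (33.3%, against 7.87% over all tested genes). In the same list 2 fell (9.5%, near the 7.9% over all tested genes). The median log2 fold change of the list was 0.34, against 0.042 over all tested genes. The lower count was 1 without N deficiency replicates 1_3 or 4_6 or control replicate 1_3.

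Other carriers annotated with nitrate transport included LOC100502532, a chloride channel protein, which averaged 7.89 ± 3.33 FPKM in N deficiency and 28.9 ± 5.75 FPKM in the control, and LOC103653994, annotated as a nitrate symporter with a part in potassium balance, which averaged 0.138 ± 0.0974 FPKM in N deficiency and 5.04 ± 3.37 FPKM in the control. Both fell. Of 4 tested ammonium transporter genes 3 rose, and the count was 1 without control replicate 1_3. LOC100279304 had 32.4, 36.4 and 30.6 FPKM in N deficiency, against 14.4, 13.4 and 18.2 FPKM in the control (log2 fold change 1.07 ± 0.16, adjusted p = 0.00464). LOC100272903 averaged 9.42 FPKM in N deficiency, against 4.19 FPKM in the control, and its call was lost without N deficiency replicate 4_6 or control replicate 1_3. LOC100304410 averaged 3.98 FPKM in N deficiency, against 1.22 FPKM in the control, and its call was lost without N deficiency replicates 1_3 or 7_9 or any one control replicate. The plasma membrane proton pump mha4, of the class that energises such uptake, had 307, 366 and 357 FPKM in N deficiency, against 106, 118 and 90.4 FPKM in the control (log2 fold change 1.71 ± 0.17, adjusted p = 0.00105).

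**Figure D2:**
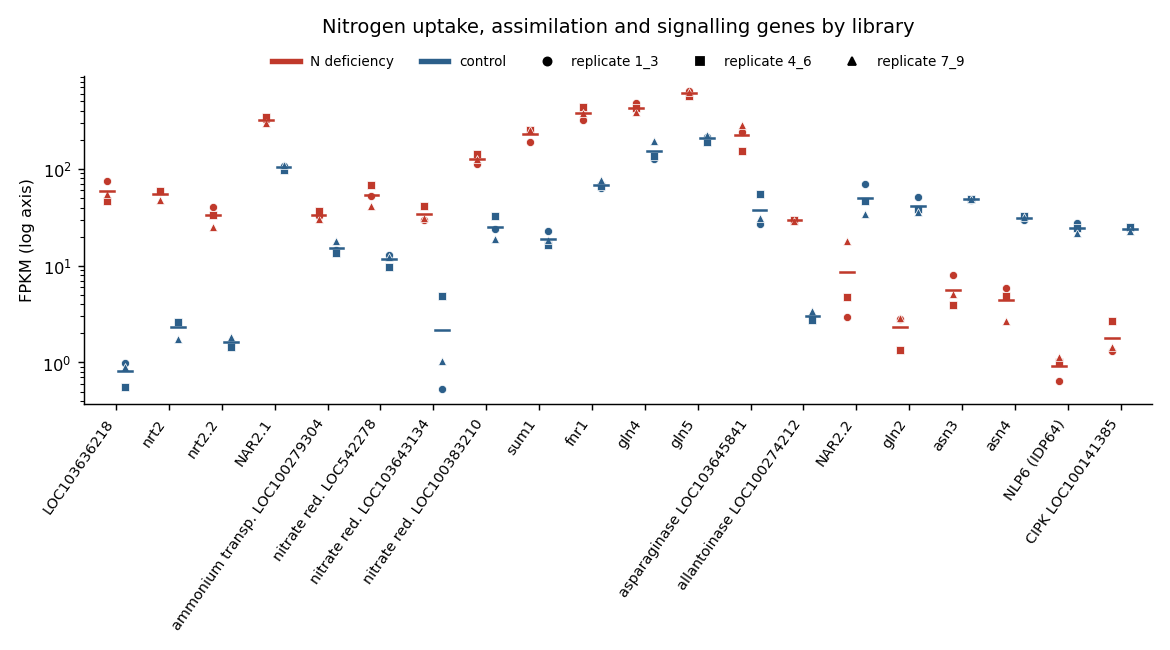
FPKM on a log axis for 20 genes of nitrogen uptake, assimilation and signalling, N deficiency in red to the left of the control in blue for each gene. Each symbol is 1 library, with its shape giving the replicate label, and bars are means of 3 libraries. For the first 14 genes every N deficiency library lies above every control library, and for the last 6 every N deficiency library lies below.

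Genes for nitrate and nitrite reduction rose as well. The nitrate reductase gene LOC542278 had 52.7, 67.6 and 41.7 FPKM in N deficiency, against 12.9, 9.81 and 12.2 FPKM in the control (log2 fold change 2.1 ± 0.20, adjusted p = 0.000873). LOC103643134, annotated with NADH and NADPH nitrate reductase activity, had 29.6, 41.1 and 31 FPKM in N deficiency, against 0.53, 4.92 and 1.03 FPKM in the control, with control replicate 4_6 above the other control libraries. LOC100383210, with the same pathway and an NADPH nitrate reductase annotation, was the most abundant of these, with 113, 143 and 126 FPKM in N deficiency, against 24, 32.5 and 19.1 FPKM in the control (log2 fold change 2.32 ± 0.21, adjusted p = 0.000679). The nitrite reductase activity is annotated to LOC103627781, which had 126, 223 and 116 FPKM in N deficiency, against 85.5, 46 and 50.6 FPKM in the control (log2 fold change 1.33 ± 0.32, adjusted p = 0.0323). That call was lost when any library but N deficiency replicate 7_9 or control replicate 1_3 was left out.

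Genes linked to the cofactor and electrons of nitrite reduction moved both ways. The gene sum1 encodes the methyltransferase that starts siroheme synthesis from uroporphyrinogen, and sum1 had 189, 252 and 253 FPKM in N deficiency, against 22.6, 16.2 and 18.3 FPKM in the control (log2 fold change 3.53 ± 0.19, adjusted p = 0.00011). The gene fnr1, which encodes a ferredoxin NADP reductase, had 321, 435 and 382 FPKM in N deficiency, against 63, 66.5 and 76.6 FPKM in the control (log2 fold change 2.44 ± 0.18, adjusted p = 0.000276). In both genes the lowest N deficiency library was several times the highest control library. The other siroheme gene, LOC100193969, a sirohydrochlorin ferrochelatase, averaged 1.2 FPKM in N deficiency, against 1.64 FPKM in the control, with an adjusted p of 0.37. A pair of ferredoxin genes fell. LOC100382495 (ferredoxin-4 type) had 1.73, 1.43 and 3.16 FPKM in N deficiency, against 76.9, 39.2 and 43.8 FPKM in the control, and LOC100283643, ferredoxin-3, averaged 9.1 ± 0.824 FPKM in N deficiency and 17.5 ± 1.21 FPKM in the control. In the list for reductant supply in plastids 4 of 22 tested genes rose (18.2%, against 7.87% over all tested genes). In the same list 2 fell (9.1%, near the 7.9% over all tested genes). Those that rose were fnr1, LOC100281226 and another gene described as ferredoxin-6, and the phosphogluconate dehydrogenase gene LOC100856973. The higher count was 1 when N deficiency replicate 1_3 or 4_6 or control replicate 1_3 was left out, and 2 when N deficiency replicate 7_9 was.

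In ammonium assimilation the abundant glutamine synthetase genes rose. The gene gln5 had 635, 565 and 621 FPKM in N deficiency, against 213, 190 and 225 FPKM in the control (log2 fold change 1.53 ± 0.17, adjusted p = 0.00168), and gln4 had 482, 426 and 385 FPKM in N deficiency, against 126, 136 and 195 FPKM in the control (log2 fold change 1.51 ± 0.22, adjusted p = 0.00446). The gene gln2 went the other way, with 2.82, 1.36 and 2.86 FPKM in N deficiency, against 51.5, 38.3 and 35.9 FPKM in the control (log2 fold change -3.70 ± 0.24, adjusted p = 0.000177). The genes gln1, gln3 and GLN6 rose as well, with log2 fold changes of 0.91, 0.96 and 1.81. The calls of gln1, gln3 and GLN6 were lost without N deficiency replicate 1_3 or control replicate 1_3, those of gln1 and gln3 also without N deficiency replicate 4_6 or control replicate 4_6, that of gln1 without control replicate 7_9, and that of gln3 without N deficiency replicate 7_9. Ferredoxin-dependent glutamate synthase fgs1 averaged 23 ± 2.88 FPKM in N deficiency and 41.2 ± 8.55 FPKM in the control. LOC103651348, annotated as a NADH glutamate synthase, averaged 22.8 ± 6.42 FPKM in N deficiency and 40.7 ± 4.83 FPKM in the control. Both fell, and both lost the call without N deficiency replicates 1_3 or 7_9 or control replicate 1_3. The call of fgs1 was also lost without N deficiency replicate 4_6, and that of LOC103651348 without control replicates 4_6 or 7_9.

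A pair of asparagine synthetase genes fell and an asparaginase gene rose. Asparagine synthetase puts amide nitrogen on aspartate, and asparaginase releases it as ammonium. The gene asn3 had 7.93, 3.94 and 5.06 FPKM in N deficiency, against 48.2, 48.6 and 49.5 FPKM in the control (log2 fold change -2.95 ± 0.22, adjusted p = 0.000295), and asn4 had 5.87, 4.86 and 2.7 FPKM in N deficiency, against 29.7, 33 and 31.7 FPKM in the control (log2 fold change -2.61 ± 0.23, adjusted p = 0.000574). The third, asn1, averaged 31.7 FPKM in N deficiency, against 23.5 FPKM in the control, with an adjusted p of 0.112. LOC103645841, described as a probable isoaspartyl peptidase or L-asparaginase, had 241, 154 and 285 FPKM in N deficiency, against 26.7, 55.1 and 31 FPKM in the control (log2 fold change 2.58 ± 0.33, adjusted p = 0.00259). Glutamate dehydrogenase gene gdh1 rose, averaging 110 ± 29.6 FPKM in N deficiency and 29.7 ± 15.3 FPKM in the control. LOC100193614, glutamic dehydrogenase 2, fell, averaging 14 ± 1.45 FPKM in N deficiency and 27.7 ± 6.76 FPKM in the control (SD, n = 3 each). The LOC100193614 call was lost without control replicate 1_3 or any one N deficiency replicate. Of 12 tested members of the assimilation list 7 rose and 4 fell, with a median log2 fold change of 0.93. The higher count was 4 without N deficiency replicate 1_3 or control replicate 1_3.

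Over the deposited pathway annotation, 15 of 35 tested genes of nitrogen metabolism rose and 5 fell, shares of 42.9% and 14.3%, with a median log2 fold change of 0.51. The 5 that fell were gln2, fgs1, LOC103651348, LOC100193614 and LOC100272439, a carbonic anhydrase that averaged 10.2 FPKM in N deficiency, against 18.3 FPKM in the control. Leaving out any one library left between 1 and 3 of these 5 past the threshold, fewest without N deficiency replicate 7_9 or control replicate 1_3. Carbonic anhydrases interconvert carbon dioxide and bicarbonate, and the pathway holds several of them. The gene csu869(cah), annotated with that activity, rose, averaging 136 ± 8.18 FPKM in N deficiency and 65.3 ± 12.7 FPKM in the control, and LOC100275493 averaged 5.7 FPKM in N deficiency, against 3.1 FPKM in the control, with its call lost without any one N deficiency replicate or control replicates 1_3 or 7_9.

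Of 7 tested genes for the release of nitrogen from purines and its transport 3 rose and 1 fell, with a median log2 fold change of 0.02. Allantoinase, which opens the ring of allantoin, is encoded by LOC100274212, with 29.8, 29.8 and 29.1 FPKM in N deficiency, against 2.94, 2.75 and 3.39 FPKM in the control (log2 fold change 2.93 ± 0.13, adjusted p = 5.97e-05). Ureide permease gene TIDP3621 had 79, 55.2 and 58.8 FPKM in N deficiency, against 29.2, 25.9 and 29.9 FPKM in the control (log2 fold change 1.14 ± 0.17, adjusted p = 0.00514). Uricase gene LOC100274529, which acts upstream of allantoin, averaged 26.6 FPKM in N deficiency, against 26.3 FPKM in the control, with an adjusted p of 0.957. The urease gene pco128913 averaged 7.09 FPKM in N deficiency, against 8 FPKM in the control, with an adjusted p of 0.516. A urease accessory gene, pco130711, fell with a log2 fold change of -0.78.

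Peptide carriers were among the strongest increases in transport. Oligopeptide transporter 9, LOC100191494, had 25.5, 25.1 and 27.9 FPKM in N deficiency, against 1.56, 1.37 and 2.14 FPKM in the control (log2 fold change 3.34 ± 0.15, adjusted p = 6.08e-05), and oligopeptide transporter 4, LOC100285726, had 16.2, 16.4 and 21.6 FPKM in N deficiency, against 1.64, 2.41 and 2.02 FPKM in the control (log2 fold change 2.65 ± 0.17, adjusted p = 0.000181). Amino acid carriers were found on both sides. The ANT1-type transporter AY105589 fell, averaging 3.04 ± 0.334 FPKM in N deficiency and 21.2 ± 5.46 FPKM in the control, and pco130308(330), described as a transmembrane amino acid transporter, had 3.74, 2.5 and 2.96 FPKM in N deficiency, against 45.2, 30.2 and 22.3 FPKM in the control. Of 51 tested genes of amino acid and peptide transport 15 rose and 11 fell, with a median log2 fold change of 0.41. The lower count was 6 without N deficiency replicate 1_3, and 7 without N deficiency replicates 4_6 or 7_9 or control replicate 7_9. LOC100274152, described as WAT1-related and annotated with glutamine transport, had 113, 52.3 and 60.3 FPKM in N deficiency, against 7.46, 5.32 and 7.29 FPKM in the control.

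Regulators linked to nitrate moved in both directions. NLP proteins are transcription factors that act in the nitrate response in Arabidopsis. IDP64, described as NLP6, was nearly lost, with 0.646, 1 and 1.14 FPKM in N deficiency, against 27.5, 24.6 and 21.6 FPKM in the control (log2 fold change -3.73 ± 0.16, adjusted p = 5.97e-05), while NIN-like protein 1, LOC100285205, averaged 7.85 ± 2.69 FPKM in N deficiency and 1.96 ± 0.307 FPKM in the control and NLP8 averaged 2.69 ± 0.559 FPKM in N deficiency and 0.608 ± 0.0933 FPKM in the control, and both rose. The kinase gene LOC100141385, of the family that acts with CBL calcium sensors, had 1.3, 2.66 and 1.45 FPKM in N deficiency, against 24, 25.1 and 23 FPKM in the control (log2 fold change -3.19 ± 0.20, adjusted p = 0.000156). Of 39 tested members of the nitrate signalling list 6 fell (15.4%, against 7.9% over all tested genes) and 3 rose (7.7%, near the 7.87% over all tested genes). The last of the 3 was the calcineurin B-like gene CBL2-1, whose call was lost without control replicate 1_3. The lower count was 2 without N deficiency replicate 4_6 or control replicate 1_3. For IDP64 and LOC100141385 the groups did not come near each other.

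Of the 962 GO terms and 106 pathways with at least 15 tested genes, the largest share of increases was in programmed cell death involved in cell development, a term held by cysteine proteases here. Of 15 tested genes of that term 9 rose and 1 fell (60% and 6.7%), with a median log2 fold change of 1.44, and all 9 are annotated as cysteine-type peptidases or endopeptidases of the senescence-associated vacuole or described as senescence-type cysteine proteases. Such proteases break down protein in vacuoles of dying or senescing cells. The 9 genes summed to 294, 185 and 100 FPKM in N deficiency, against 5.04, 7.04 and 7.56 FPKM in the control. In 7 of the 9 genes N deficiency replicate 1_3 was highest and 7_9 lowest. The groups did not overlap in any of the 9.

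The most abundant of these was LOC103641507, with 80, 53.4 and 24.4 FPKM in N deficiency, against 1.2, 1.85 and 1.16 FPKM in the control (log2 fold change 4.34 ± 0.39, adjusted p = 0.000667). LOC100284926, described as cysteine protease 1, had 44.6, 28.6 and 24.8 FPKM in N deficiency, against 0.831, 0 and 1.08 FPKM in the control (log2 fold change 4.39 ± 0.32, adjusted p = 0.000304), and LOC103629966 had 47, 30.9 and 13.2 FPKM in N deficiency, against 1.11, 0.893 and 1.2 FPKM in the control (log2 fold change 3.76 ± 0.40, adjusted p = 0.00131). LOC103646785, LOC103646791 and LOC103646794 lie within a few genes of each other in the RefSeq gene order, and LOC103638252 and LOC103638253 are direct neighbours, so reads may have been split between close copies. LOC103638253 had 29, 17.2 and 10 FPKM in N deficiency, against 0.762, 0.776 and 0.949 FPKM in the control, and LOC103646785 had 40.3, 25.3 and 11.2 FPKM in N deficiency, against 0.63, 1.45 and 1.03 FPKM in the control. AY110253, described as SAG12, averaged 1.28 FPKM in N deficiency, against 0.118 FPKM in the control, and its call was lost without N deficiency replicates 1_3 or 7_9 or any one control replicate. The member that fell, LOC100281886, a SEN102-type thiol protease, averaged 23.4 ± 2.83 FPKM in N deficiency and 42.5 ± 4.49 FPKM in the control. Of the members that did not pass, xylem cysteine proteinase 2 (LOC100283748) and cysteine protease5 (IDP105), had log2 fold changes of 1.19 and 0.78 and adjusted p of 0.0527 and 0.0903.

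**Figure D3:**
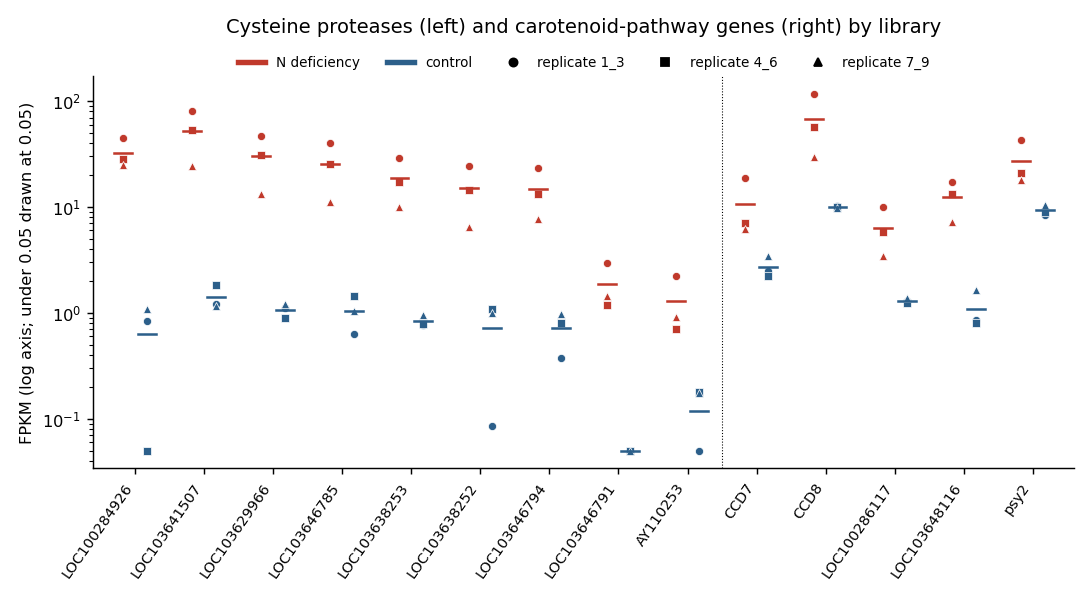
FPKM on a log axis for 9 cysteine protease genes (left of the dotted line) and 5 genes of the carotenoid pathway (right), N deficiency in red to the left of the control in blue. Each symbol is 1 library, with its shape giving the replicate label, and bars are means of 3 libraries. Values under 0.05 are drawn at 0.05. In every gene shown, replicate 1_3 (circles) is the highest N deficiency library, and every N deficiency library lies above every control library.

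Genes of the carotenoid pathway moved both ways. Strigolactones, hormones released by roots and acting in branching, are made from carotenoids, and genes for their synthesis rose. CCD8, a carotenoid cleavage dioxygenase of strigolactone synthesis, had 116, 56.6 and 29.9 FPKM in N deficiency, against 10.2, 10 and 9.8 FPKM in the control (log2 fold change 2.43 ± 0.43, adjusted p = 0.00955). CCD7, which acts a step earlier, had 18.7, 7.07 and 6.19 FPKM in N deficiency, against 2.48, 2.24 and 3.47 FPKM in the control (log2 fold change 1.5 ± 0.37, adjusted p = 0.0352), and its call was lost without N deficiency replicate 4_6 or any one control replicate. LOC103648116, annotated as a plastid isomerase of strigolactone synthesis, had 17.1, 13.2 and 7.29 FPKM in N deficiency, against 0.848, 0.798 and 1.65 FPKM in the control (log2 fold change 2.64 ± 0.30, adjusted p = 0.0018). As in the proteases, N deficiency replicate 1_3 was highest in each. The 3 genes of the strigolactone list, CCD7, CCD8 and LOC100286117, summed to 145, 69.4 and 39.6 FPKM in N deficiency, against 14.0, 13.5 and 14.6 FPKM in the control. All 3 were called by limma and by voom. In the authors' deposited table only LOC100286117 was called, and CCD7 and CCD8 did not pass. Phytoene synthase psy2, at the entry of the pathway, had 43.3, 20.9 and 17.8 FPKM in N deficiency, against 8.46, 9.05 and 10.4 FPKM in the control, with its call lost without N deficiency replicate 4_6 or control replicates 1_3 or 4_6.

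Several genes on the way through xanthophylls to abscisic acid, and of its breakdown, fell. Of 25 tested genes annotated with abscisic acid synthesis 7 fell (28.0%) and 2 rose (8.0%, near the 7.87% over all tested genes). The 2 were cl1856_1 and the FHA domain gene LOC100284014. Leaving out any 1 of the 6 libraries ended the call of LOC100284014. Beta-carotene hydroxylase LOC100281693 had 9.64, 6.96 and 13.9 FPKM in N deficiency, against 249, 125 and 155 FPKM in the control (log2 fold change -3.98 ± 0.31, adjusted p = 0.000386), and HYD3 averaged 13.8 ± 3.53 FPKM in N deficiency and 43.1 ± 11.5 FPKM in the control. LOC103641704, annotated as a zeaxanthin epoxidase, averaged 6.02 ± 0.684 FPKM in N deficiency and 22.3 ± 2.81 FPKM in the control. Abscisic acid 8'-hydroxylases inactivate the hormone, and LOC103653298 of this family had 0.1, 0.0347 and 0 FPKM in N deficiency, against 5.48, 4.92 and 2.72 FPKM in the control, as IDP1977 had 0, 0.0382 and 0.038 FPKM in N deficiency, against 3.15, 2.32 and 2.28 FPKM in the control. In the pathway as a whole 12 of 38 tested genes fell and 6 rose. The higher count was 2 without N deficiency replicate 4_6 or control replicate 4_6 and 3 without control replicates 1_3 or 7_9. Of 70 genes for abscisic acid and type 2C phosphatases 16 fell. LOC100285223, described as ABI1, a phosphatase that damps abscisic acid signalling, had 0.672, 0.345 and 0.513 FPKM in N deficiency, against 33.9, 15.4 and 21.6 FPKM in the control (log2 fold change -3.96 ± 0.27, adjusted p = 0.000218). The single member that rose, umc2681, described as an ABA-induced membrane protein, averaged 22 FPKM in N deficiency, against 12.4 FPKM in the control, and its call was lost without N deficiency replicates 1_3 or 4_6 or control replicates 1_3 or 4_6. The higher count of this list was 0 without N deficiency replicates 1_3 or 4_6 or control replicate 1_3, 2 without N deficiency replicate 7_9 and 3 without control replicate 7_9.

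Several abundant transcripts for galactosyl sugars fell. Galactinol synthase makes the galactosyl donor for raffinose and stachyose, soluble sugars that accumulate in seeds and under drought. The galactinol synthase gene gols2 had 49.6, 22.8 and 43.2 FPKM in N deficiency, against 826, 650 and 629 FPKM in the control (log2 fold change -4.21 ± 0.30, adjusted p = 0.000243), and LOC606403, galactinol synthase 1, had 32.2, 20 and 31.2 FPKM in N deficiency, against 508, 424 and 409 FPKM in the control (log2 fold change -3.98 ± 0.22, adjusted p = 0.000117). LOC103634440, annotated with the same galactosyltransferase activity, was listed at 0 in all 3 N deficiency libraries and had 8.03, 5.21 and 3.18 FPKM in the control. Stachyose synthase LOC100281190 had 5.22, 2.78 and 4.51 FPKM in N deficiency, against 296, 200 and 192 FPKM in the control (log2 fold change -5.48 ± 0.24, adjusted p = 5.97e-05).

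Some genes that supply or cleave these sugars fell too, and others rose. LOC542127, the epimerase that makes UDP-galactose from UDP-glucose, had 44.7, 47.1 and 51.3 FPKM in N deficiency, against 515, 393 and 353 FPKM in the control (log2 fold change -3.10 ± 0.18, adjusted p = 0.000143). Alkaline alpha galactosidase AGA1 had 60.2, 67.3 and 43.9 FPKM in N deficiency, against 1321, 974 and 920 FPKM in the control (log2 fold change -4.21 ± 0.23, adjusted p = 0.000127), and alpha-galactosidase LOC100280970 had 13, 7.09 and 12.9 FPKM in N deficiency, against 398, 291 and 285 FPKM in the control. Over the galactose metabolism pathway 14 of 61 tested genes fell (23.0%, against 7.9% over all tested genes). In the same pathway 5 rose (8.2%, near the 7.87% over all tested genes). Those that rose were LOC103641497, a probable galactinol-sucrose galactosyltransferase with 5.37 ± 0.341 FPKM in N deficiency and 1.35 ± 0.548 FPKM in the control, AGA3-type LOC606431 with 6.15 ± 1.14 FPKM in N deficiency and 2.62 ± 1.06 FPKM in the control, LOC100191564, annotated with raffinose alpha-galactosidase activity, and the phosphofructokinase genes LOC100285548 and pco064611a. LOC606431 and LOC100191564 lost it without N deficiency replicates 1_3 or 4_6 or control replicates 1_3 or 4_6, LOC100191564 also without control replicate 7_9, and pco064611a without N deficiency replicate 1_3. The count of those that rose was 2 without N deficiency replicate 1_3 and 3 without N deficiency replicate 4_6 or control replicate 1_3.

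Sucrose and starch genes fell more often than they rose. Sucrose synthase sus2 had 5.77, 2.99 and 8.15 FPKM in N deficiency, against 165, 144 and 114 FPKM in the control (log2 fold change -4.48 ± 0.30, adjusted p = 0.000214), and starch synthase ss1 averaged 2.35 ± 0.178 FPKM in N deficiency and 12.5 ± 2.34 FPKM in the control. Of 134 tested genes of starch and sucrose metabolism 28 fell (20.9%, against 7.9% over all tested genes). In the same pathway 9 rose (6.7%, against 7.87% over all tested genes). The higher count dropped to 1 when control replicate 1_3 was left out, to 2 when either N deficiency replicate 1_3 or 4_6 was, and to 5 when control replicate 4_6 was. Sugar carriers gave a different balance by list and by annotation. In the sugar transport list, matched by description, 7 of 47 were higher (14.9%) and 1 lower (2.1%), with 2 lower without N deficiency replicate 1_3. Of 17 tested genes annotated with sugar transmembrane transporter activity 6 fell (35.3%) and 4 rose (23.5%), with a median log2 fold change of -0.33. The 4 was 2 without N deficiency replicate 4_6 or control replicate 1_3. Of 54 annotated with carbohydrate transport 9 fell (16.7%) and 5 rose (9.3%, near the 7.87% over all tested genes). The 5 was 1 without N deficiency replicate 4_6 or control replicate 1_3 and 3 without N deficiency replicate 1_3 or control replicate 4_6. LOC100281296, the gene of the sugar transporter term with the smallest adjusted p, had 1.96, 1.48 and 2.38 FPKM in N deficiency, against 30.6, 21.5 and 22.1 FPKM in the control (log2 fold change -3.12 ± 0.19, adjusted p = 0.000152). Sugar transport protein 5, LOC100285394, had 27.1, 25.5 and 26 FPKM in N deficiency, against 6.53, 5.87 and 7.16 FPKM in the control (log2 fold change 1.86 ± 0.13, adjusted p = 0.000218), and the glucose-6-phosphate translocator LOC100281048, which brings hexose phosphate into plastids, had 22.4, 74.7 and 41.3 FPKM in N deficiency, against 2.53, 6.95 and 4.22 FPKM in the control. The single lower member of the list was SWEET16, LOC103634637, with 49, 45.7 and 99 FPKM in N deficiency, against 480, 341 and 239 FPKM in the control.

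**Figure D4:**
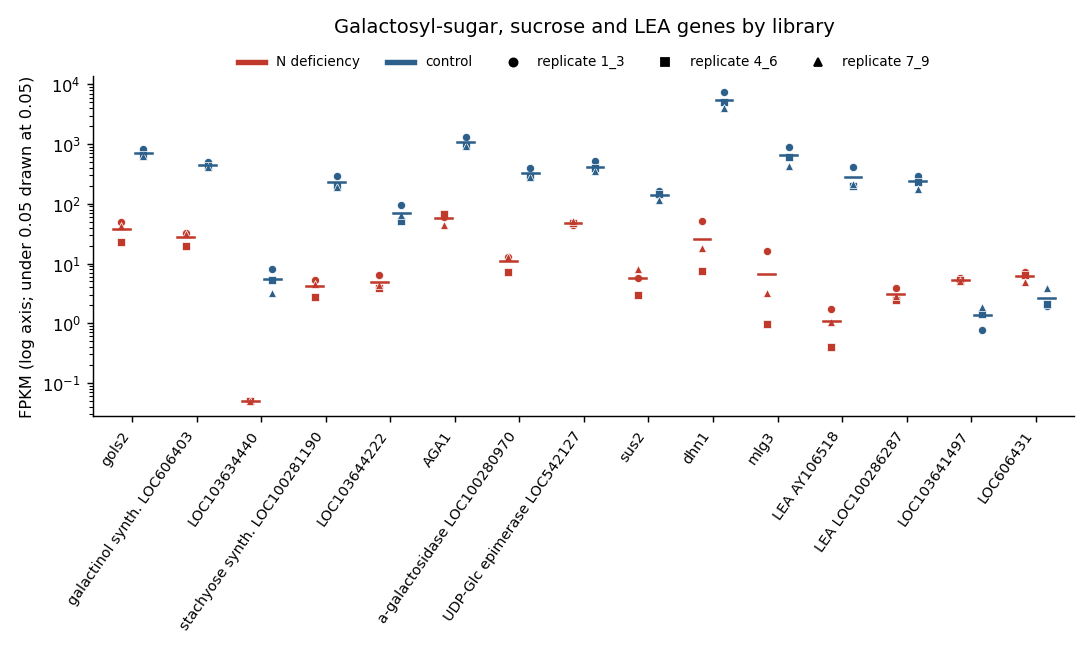
FPKM on a log axis for genes of galactosyl sugars and sucrose and for 4 late embryogenesis abundant (LEA) genes, N deficiency in red to the left of the control in blue. Each symbol is 1 library, with its shape giving the replicate label, bars are means of 3 libraries, and values under 0.05 are drawn at 0.05. The first 13 genes were lower in every N deficiency library, and LOC103641497 and LOC606431 were higher.

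The largest loss of transcript was in a gene for protection against water loss, and other genes of this kind fell too. Dehydrins and other LEA proteins shield cells as they dry, in seeds and in stressed tissue. Dehydrin dhn1, the largest decrease of any tested gene both in log2 fold change and in level, had 51.9, 7.45 and 18.1 FPKM in N deficiency, against 7446, 5058 and 4042 FPKM in the control (log2 fold change -8.03 ± 0.62, adjusted p = 0.000354). The group 3 LEA gene mlg3 had 16, 0.963 and 3.25 FPKM in N deficiency, against 898, 609 and 422 FPKM in the control, and AY106518, of the same group, had 1.76, 0.394 and 1.06 FPKM in N deficiency, against 415, 202 and 213 FPKM in the control. In these genes N deficiency replicate 1_3 was the highest of its group, as control replicate 1_3 was of the control. The 22 tested genes for dehydrins and LEA proteins summed to 1447, 1427 and 1881 FPKM in N deficiency, against 12008, 9020 and 7160 FPKM in the control, and 11 of them fell. The 1 that rose, LOC100279368, a LEA hydroxyproline-rich glycoprotein, averaged 38.2 ± 4.71 FPKM in N deficiency and 14.8 ± 4.5 FPKM in the control.

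Some seed and heat genes fell as well. The 21 tested seed and embryo genes summed to 314, 326 and 272 FPKM in N deficiency, against 1839, 1221 and 1184 FPKM in the control, and 10 fell while 10 did not pass. Oleosin, a coat protein of oil bodies, averaged 0.184 ± 0.082 FPKM in N deficiency and 42.3 ± 18.9 FPKM in the control, and embryonic protein DC-8, LOC100283639, had 10.7, 0.668 and 2.64 FPKM in N deficiency, against 869, 520 and 434 FPKM in the control. The 1 seed gene that rose, LOC100284105, averaged 95.2 FPKM in N deficiency, against 47.9 FPKM in the control, and its call was lost without any one N deficiency replicate and without control replicates 1_3 or 4_6. Without control replicate 7_9 the list had 2 higher members. Of 86 tested heat shock genes 23 fell and 63 did not pass, with a median log2 fold change of -0.05, among them hsp18a, with 1.27, 0.853 and 1.43 FPKM in N deficiency, against 30.2, 20.1 and 23.9 FPKM in the control. None of the 86 rose in limma, with voom or in the authors' deposited table, while 9 were higher at an unadjusted p under 0.05. Without control replicate 7_9, 3 rose, and 1 rose without N deficiency replicates 1_3 or 7_9. In bulk tissue fewer cells of a type and less RNA per cell cannot be told apart, and the part of other cell types in these differences was not tested.

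Of 37 tested genes annotated with the cellular response to phosphate starvation 12 fell and 2 rose (32.4% and 5.4%). LOC100191227, a phosphatase of the phospho 1 type, had 18.7, 14 and 13.3 FPKM in N deficiency, against 240, 244 and 207 FPKM in the control (log2 fold change -3.84 ± 0.17, adjusted p = 5.97e-05), and the related pco107612 averaged 15.2 ± 7.74 FPKM in N deficiency and 115 ± 16 FPKM in the control. The SPX-type ids4-like gene LOC100282863 had 4.17, 3.31 and 1.61 FPKM in N deficiency, against 61.8, 46 and 67.9 FPKM in the control (log2 fold change -3.92 ± 0.27, adjusted p = 0.000241). SPX proteins sense phosphate status. Outside the term, PPCK4, a kinase that acts on phosphoenolpyruvate carboxylase, averaged 3.37 ± 0.918 FPKM in N deficiency and 30.3 ± 8.68 FPKM in the control and fell. The 2 genes of the term that rose were MYB145, which averaged 153 FPKM in N deficiency, against 93.1 FPKM in the control, and LOC103654129, annotated with phosphate transport, with 78.9, 48.5 and 61 FPKM in N deficiency, against 20.8, 12.1 and 20.8 FPKM in the control. The MYB145 call was lost without any one N deficiency replicate and without control replicates 1_3 or 7_9, and the count of 2 was 1 without N deficiency replicates 1_3 or 4_6 or control replicates 1_3 or 7_9.

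Some genes for phosphate uptake and scavenging fell as well. Of 16 tested genes of phosphate transport and signalling 8 fell, among them the SPX domain membrane protein LOC100501893, with 1.46, 1.49 and 1.09 FPKM in N deficiency, against 42.9, 29 and 33.6 FPKM in the control (log2 fold change -3.93 ± 0.18, adjusted p = 5.97e-05). None rose in limma, with voom or in the authors' deposited table, while 1 was higher at an unadjusted p under 0.05 and 1 was called without control replicate 7_9. LOC100272946, purple acid phosphatase 15, an enzyme that releases phosphate from esters, had 3.23, 2.79 and 1.75 FPKM in N deficiency, against 67.5, 78.3 and 64.4 FPKM in the control (log2 fold change -4.32 ± 0.19, adjusted p = 5.97e-05). LOC100383215, a glycerophosphodiester phosphodiesterase that breaks down headgroups of membrane lipids, had 11.6, 8.09 and 7.71 FPKM in N deficiency, against 193, 196 and 161 FPKM in the control (log2 fold change -4.20 ± 0.18, adjusted p = 5.97e-05). Of 59 tested genes for phosphate scavenging and lipid remodelling 14 fell and 2 rose, the phospholipase C gene PLC and the acid phosphatase LOC100280755, and 43 did not pass. The higher count was 0 when N deficiency replicate 1_3 or 4_6 or control replicate 1_3 was left out, and the call of LOC100280755 was lost too without control replicates 4_6 or 7_9, as that of PLC was without N deficiency replicate 7_9 or control replicate 7_9. In LOC100501893, LOC100272946 and LOC100383215 the highest N deficiency library was under every control library by a wide margin.

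**Figure D5:**
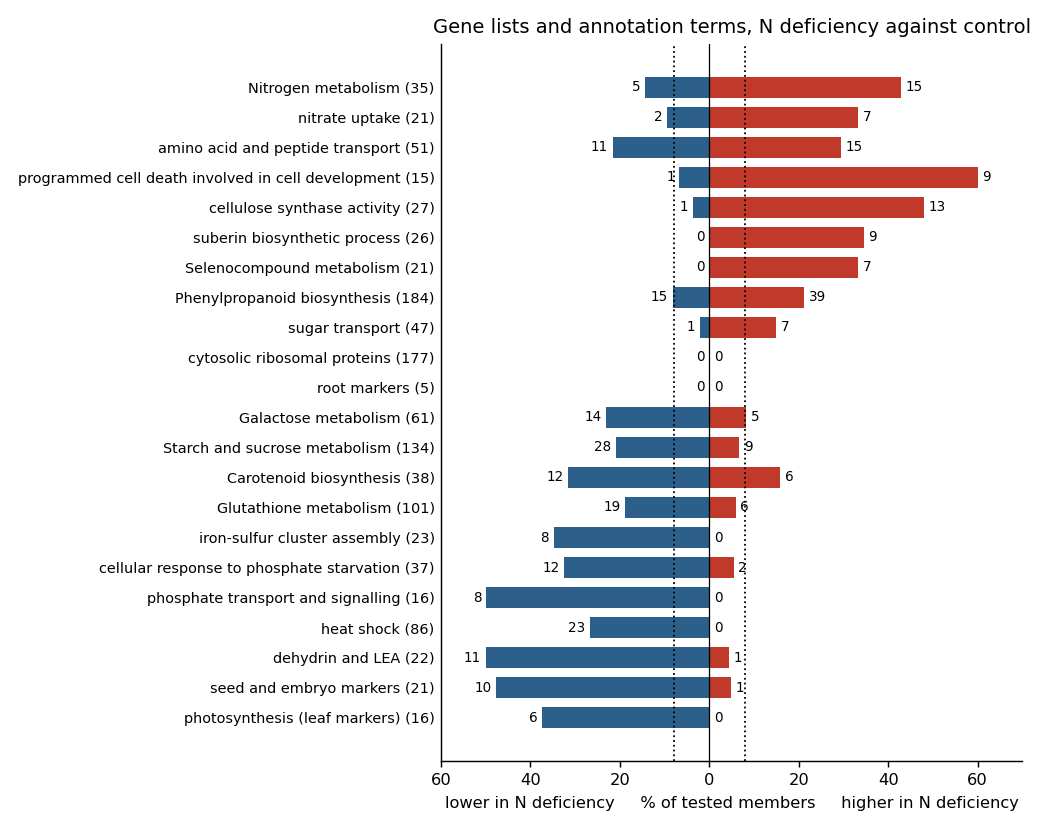
Share of tested genes called higher (red, right) and lower (blue, left) in N deficiency against the control at an adjusted p under 0.05, for gene lists and annotation terms, with the number of tested genes in parentheses and the number called beside each bar. Dotted lines are the shares over all tested genes, 7.87% higher and 7.9% lower. No group test was run on these counts.

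Cell wall genes moved both ways, with counts that depended on single libraries. Over the 358 tested genes annotated with the cell wall 35 rose and 31 fell, shares near those of all tested genes. Leaving out control replicate 1_3 gave 10 higher and 18 lower, leaving out N deficiency replicate 4_6 gave 12 and 20, and leaving out N deficiency replicate 1_3 gave 17 and 19. Of 27 tested genes annotated with cellulose synthase activity 13 rose, and 1, cesa3, fell. The count of 13 was 4 without control replicate 1_3, 5 without N deficiency replicate 4_6 and 6 without N deficiency replicate 1_3. CesA12, of the group known from secondary walls, had 54.4, 76 and 63.1 FPKM in N deficiency, against 29.8, 24.2 and 35.7 FPKM in the control (log2 fold change 1.09 ± 0.19, adjusted p = 0.00999), and cesa2 averaged 85.8 ± 17.8 FPKM in N deficiency and 35.4 ± 8.87 FPKM in the control. The gene cesa3 averaged 5.48 ± 0.694 FPKM in N deficiency and 11 ± 1.42 FPKM in the control. Of 45 tested genes for expansins and xyloglucan enzymes, which loosen and remodel walls, 4 fell (8.9%), near the 7.9% over all tested genes. The median log2 fold change of the 45 was 0.31. The 4 that fell were xet1, alpha-expansin LOC100284166, expansin-like LOC100383815 and beta-expansin si606008c01. The count was 2 without N deficiency replicates 1_3 or 4_6 or without control replicate 1_3. None of the 45 rose in limma or in the authors' deposited table, against 1 with voom and 8 at an unadjusted p under 0.05, and 8 were called higher without N deficiency replicate 7_9 and 3 without control replicate 7_9. The xyloglucan gene xet1 had 10.2, 5.15 and 12.2 FPKM in N deficiency, against 158, 169 and 155 FPKM in the control (log2 fold change -4.05 ± 0.27, adjusted p = 0.000214). Of 16 genes annotated with breakdown of cell wall macromolecules 6 fell. None of the 16 rose in limma, with voom or in the authors' deposited table, while 3 were higher at an unadjusted p under 0.05, and 1 was called without N deficiency replicate 7_9 or control replicate 7_9. Of 26 tested genes of suberin synthesis, the waxy barrier of root cell walls, 9 rose. The one with the smallest adjusted p was LOC100285138, described as an ATPase that moves substances across membranes, with 41.8, 42.6 and 33.5 FPKM in N deficiency, against 11, 11.3 and 12 FPKM in the control (log2 fold change 1.69 ± 0.14, adjusted p = 0.00047). The suberin count was 3 without N deficiency replicates 1_3 or 4_6, 4 without control replicates 1_3 or 4_6 and 5 without N deficiency replicate 7_9, and it was 9 with voom and 3 in the authors' deposited table.

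Phenylpropanoid genes, which make lignin precursors and include peroxidases, rose in 39 of 184 cases and fell in 15. The share that rose was 21.2%, against 7.87% over all tested genes. The share that fell was 8.2%, near the 7.9% over all tested genes. Leaving out control replicate 1_3 gave 11 higher and 8 lower genes, leaving out N deficiency replicate 1_3 gave 17 higher and 9 lower, and leaving out N deficiency replicate 4_6 gave 17 higher. Caffeoyl-CoA O-methyltransferase LOC100286151 had 33.3, 30.6 and 27 FPKM in N deficiency, against 10.3, 13.7 and 12.6 FPKM in the control (log2 fold change 1.25 ± 0.15, adjusted p = 0.00232), and cinnamoyl-CoA reductase LOC100382657 had 57.6, 79.7 and 139 FPKM in N deficiency, against 15.5, 25.5 and 19.7 FPKM in the control. Laccase-7, pco061287(609), averaged 31.4 ± 5.37 FPKM in N deficiency and 132 ± 27.2 FPKM in the control. Peroxidase 2, LOC100285056, had 6.26, 3.42 and 5.1 FPKM in N deficiency, against 129, 115 and 137 FPKM in the control (log2 fold change -4.46 ± 0.20, adjusted p = 5.97e-05). Peroxidase 59, LOC100280077, rose, averaging 15.2 ± 1.84 FPKM in N deficiency and 4.59 ± 2.2 FPKM in the control.

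Sulfur, iron and redox genes changed in smaller groups. Of 21 tested genes of selenocompound metabolism 7 rose, and 4 did so without control replicate 1_3. The pathway holds enzymes of methionine synthesis, and LOC103645417, annotated as a cystathionine gamma-synthase, had 9.78, 9.04 and 8.41 FPKM in N deficiency, against 0.36, 1.81 and 0.471 FPKM in the control (log2 fold change 2.50 ± 0.28, adjusted p = 0.00154). Methionine synthase type TIDP3524 averaged 95.7 ± 6.48 FPKM in N deficiency and 42.8 ± 10.9 FPKM in the control. Serine acetyltransferase sat1, which feeds cysteine synthesis, had 11.9, 8.53 and 14.6 FPKM in N deficiency, against 143, 77.7 and 88.9 FPKM in the control (log2 fold change -3.02 ± 0.27, adjusted p = 0.000677), while cysteine synthase LOC100216722 had 76.2, 121 and 90.5 FPKM in N deficiency, against 7.01, 21.7 and 27.1 FPKM in the control.

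Iron-sulfur cluster assembly genes fell in 8 of 23 cases. The gene nbp35, of a scaffold protein in the cytosol, had 32.8, 24.3 and 28.2 FPKM in N deficiency, against 80.6, 62.6 and 67 FPKM in the control (log2 fold change -1.27 ± 0.17, adjusted p = 0.00306). The count of 8 was 4 without N deficiency replicate 4_6 or control replicate 1_3, and 5 without N deficiency replicates 1_3 or 7_9 or control replicate 4_6. Glutathione metabolism had 19 lower genes of 101 tested (18.8%, against 7.9% over all tested genes). It had 6 higher genes (5.9%, under the 7.87% over all tested genes). The glutathione transferase gst5 averaged 86 ± 21.3 FPKM in N deficiency and 244 ± 27.9 FPKM in the control, and LOC541836 averaged 22.7 ± 1.5 FPKM in N deficiency and 71.4 ± 6.81 FPKM in the control. Both fell, while glutamate-cysteine ligase LOC100381846, the first enzyme of glutathione synthesis, had 61.8, 61.4 and 62.5 FPKM in N deficiency, against 29.2, 28.4 and 29.4 FPKM in the control (log2 fold change 1.07 ± 0.12, adjusted p = 0.00148). The higher count in this pathway was 3 without N deficiency replicate 1_3 or control replicate 1_3 and 10 without control replicate 7_9.

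Transcription factors held some of the largest changes. RADIALIS, a MYB-domain gene, had 30, 29.3 and 36.7 FPKM in N deficiency, against 0.421, 0.787 and 0.56 FPKM in the control (log2 fold change 4.37 ± 0.16, adjusted p = 5.97e-05). MYBR87, another, was listed at 0 in all 3 control libraries and had 7.19, 11.7 and 4.85 FPKM in N deficiency. The MYB305-type gene MYB165 averaged 4.08 ± 1.69 FPKM in N deficiency and 39.4 ± 13.3 FPKM in the control and fell. Of the NAC and WRKY factors, WRKY50-type LOC100193498 had 103, 123 and 115 FPKM in N deficiency, against 27.2, 31.2 and 27.9 FPKM in the control (log2 fold change 1.95 ± 0.14, adjusted p = 0.000264), the abundant NAC gene LOC100273749 had 348, 344 and 388 FPKM in N deficiency, against 50.6, 139 and 45 FPKM in the control, and NAC40 averaged 17.4 ± 1.88 FPKM in N deficiency and 70.3 ± 2.02 FPKM in the control. Large increases were also found in genes not described as transcription factors. The RING-H2 gene LOC100281214, of the ATL family of ubiquitin ligases, had 89.8, 70 and 70.4 FPKM in N deficiency, against 5.21, 5.77 and 10.4 FPKM in the control. LOC100281643, described as flowering promoting factor-like 1, had 44.9, 14.5 and 39.7 FPKM in N deficiency, against 0.684, 0.282 and 0.697 FPKM in the control (log2 fold change 4.32 ± 0.40, adjusted p = 0.000718).

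None of 177 tested genes for cytosolic ribosomal proteins passed the test in limma. At an unadjusted p under 0.05, 1 was lower, and 1 was lower with voom and 1 in the authors' deposited table. Without control replicate 7_9, 3 were called higher. Their summed level was 28241, 26236 and 23398 FPKM in N deficiency, against 24822, 20726 and 34270 FPKM in the control. The control libraries spanned the range of N deficiency.

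N deficiency was then set directly against the other shortages, in a fit of all 12 libraries. Of the same 23379 genes 10.1% differed between N and K deficiency and 11.7% between N and P deficiency. The nitrate carrier gene nrt2 was higher in N deficiency than in either. The gene nrt2 averaged 55.5 ± 6.21 FPKM in N deficiency, against 4.03 ± 1.42 FPKM in K deficiency and 0.702 ± 0.219 FPKM in P deficiency (SD, n = 3 each; adjusted p = 4.54e-06 against K and 3.76e-07 against P deficiency). For sum1 the means were 231 ± 36.4 FPKM in N deficiency, 29.6 ± 3.85 FPKM in K deficiency and 18.5 ± 4.47 FPKM in P deficiency (adjusted p = 7.84e-06 and 1.87e-06), and for fnr1 they were 379 ± 56.7 FPKM in N deficiency, 125 ± 13 FPKM in K deficiency and 112 ± 6.08 FPKM in P deficiency (adjusted p = 6.89e-05 and 3.74e-05).

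IDP64 was lower in N deficiency than in either other shortage, with 0.929 ± 0.255 FPKM in N deficiency, 16.6 ± 2.95 FPKM in K deficiency and 17.6 ± 0.31 FPKM in P deficiency (adjusted p = 7.86e-07 and 4.31e-07). The phosphate gene LOC100383215 averaged 9.14 ± 2.15 FPKM in N deficiency, 227 ± 44.4 FPKM in K deficiency and 496 ± 59.7 FPKM in P deficiency (adjusted p = 3.12e-07 and 6.42e-08). For CCD8 neither direct difference passed. CCD8 averaged 67.6 ± 44.3 FPKM in N deficiency, 51.4 ± 4.4 FPKM in K deficiency and 77.5 ± 17.3 FPKM in P deficiency (adjusted p = 0.81 and 0.507). RADIALIS differed from K deficiency, with means of 32 ± 4.12 FPKM in N deficiency and 2.42 ± 1.19 FPKM in K deficiency (adjusted p = 7.06e-06), and had 22.7 ± 1.24 FPKM in P deficiency (adjusted p = 0.166). Neither passed for mlg3, whose mean was 6.73 ± 8.09 FPKM in N deficiency, 17.2 ± 13 FPKM in K deficiency and 7.44 ± 4.28 FPKM in P deficiency (adjusted p = 0.3 and 0.679). A p above the threshold does not show that levels were alike. Among the counts, that against P deficiency (2724 genes) was 1250 without P deficiency replicate 7_9, 1259 without P deficiency replicate 1_3, 1345 without N deficiency replicate 4_6, 1372 without N deficiency replicate 7_9 and 1755 without N deficiency replicate 1_3. The count against K deficiency (2370) was 1371 when N deficiency replicate 4_6 was left out and 1548 when N deficiency replicate 7_9 was, and it was 1378 when K deficiency replicate 1_3 was left out and 1411 when K deficiency replicate 7_9 was.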

How the data were processed

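RNA-seq was deposited for roots of 12 libraries in 4 groups, and the tables give, per library, FPKM made by the authors. Per the file headers the tables also hold normalized count means (a signal per group), a fold change, a log2 fold change and p-values, deposited by the authors from a comparison of each shortage with the control that the names of the deposited files give as DESeq. The p-values and adjusted p-values of that comparison are called the authors' deposited table. The aligner, annotation and genome build behind them are not stated by any label or header used here.

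Genes with at least 0.5 FPKM in 3 of the 6 libraries (23379 of 37385) were tested on log2(FPKM + 1) with limma 3.58.1 in R 4.3.3, with an intensity trend, two-sided, with Benjamini-Hochberg adjustment over all of them and a threshold of 0.05. The values are FPKM and not counts, so no count test was the main result. Whole reads per library were recovered from the authors' normalized count means of the groups, with the FPKM used only as a guide. This was done for 99.99% of values in N deficiency and 100% in the control, within 1e-12 relative and 0.0001 reads. The recovered reads gave the depth and a limma voom alternative, which was chosen after seeing the data. Depth was 17254154 to 18465979 reads per library. Direct comparisons with K and P deficiency used all 12 libraries in 1 fit.

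Members, gene lists and terms were chosen with earlier results of these data known. Genes were named by rule: the 12 largest increases and decreases that had a description, did not overlap and lay above the median level (7.25 FPKM); the 10 largest gains and losses of FPKM; the 2 most significant members of each list per direction; all tested members of lists for uptake and assimilation of nitrogen; and the most significant member of each of the 12 GO terms and pathways with the largest share of calls per direction. Other members of these terms and genes without a description were named after their values were seen. Gene order came from RefSeq. Lists and terms were given no test.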

Additional observations from a re-analysis of the deposited data

How the results depend on the processing

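Counts of higher and lower genes stayed within 1.5 times of 1840 and 1847 with a pseudocount of 0.1 or 10, no filter, a minimum of 1 FPKM, other scalings, a fit of 12 libraries, no intensity trend, voom (chosen after seeing the data) and the authors' deposited adjusted p. At an adjusted p of 0.01 they were 624 higher and 904 lower. Without 1 library they ranged between 820 and 1764 higher and between 1052 and 1763 lower, and between 1371 and 1895 against K deficiency and 1250 and 3197 against P deficiency. The count against P deficiency was 1450 in a fit of only the 6 libraries compared. The cause was not tested. Of 315 named genes past the threshold, 215 stayed past it under all alternatives but the adjusted p of 0.01. The median of all tested genes moved between 0.002 and 0.076, so no scaling shifted it by 0.1.

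The replicate block gave 1046 higher and 1242 lower genes. The correlation of deviations from the group mean, between the N deficiency and control libraries of a label, was 0.126 for replicate 1_3, 0.046 for 4_6 and -0.402 for 7_9. The labels do not say whether libraries of the same label share more than a number, and these values cannot settle it. Against K and P deficiency the block gave 2396 and 2755 genes.

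Of the named genes, 4 that were not called changed sign. The uricase gene LOC100274529 (log2 fold change 0.016) was at -0.019 with median-ratio scaling, -0.015 with upper-quartile scaling and -0.20 with voom and in the authors' deposited table. Without 1 library it ranged between -0.074 and 0.088, LOC100272370 between -0.11 and 0.24, LOC100274435 between -0.69 and 0.02, and LOC100280282 between -0.11 and 0.053. The authors' table gave no finite fold for LOC103634440 and MYBR87, listed at 0 in 1 group. With 3 libraries a group, small changes were not detectable where libraries of a group varied.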

Other observations

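Of 29 tested genes for iron and other metals 6 rose and 7 fell. The NRAT1-like metal transporter LOC103626569 had 27.5, 14.4 and 15.9 FPKM in N deficiency, against 1.88, 3.65 and 2.29 FPKM in the control (log2 fold change 2.47 ± 0.28, adjusted p = 0.00169), and zinc transporter 1, LOC100282628, had 17.3, 10.2 and 10 FPKM in N deficiency, against 2.12, 1.88 and 1.94 FPKM in the control. Zinc transporter 4, umc1796, had 33.4, 26.3 and 26.8 FPKM in N deficiency, against 179, 137 and 119 FPKM in the control (log2 fold change -2.28 ± 0.19, adjusted p = 0.000505), and the metallothionein LOC103649798, of a family of metal-binding proteins, had 0.673, 0.0966 and 0.0947 FPKM in N deficiency, against 19.6, 15.6 and 13.1 FPKM in the control. Each of these 4 genes had groups that did not overlap.

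Some carriers of other ions also moved. Of 26 tested potassium transport genes 2 rose (7.7%, near the 7.87% over all tested genes), 4 fell (15.4%) and 20 did not pass. Leaving out 1 library left 1 or 2 higher and 2 or 3 lower. Of 19 tested genes for sulfate uptake and assimilation 2 rose, 3 fell and 14 did not pass. High-affinity potassium transporter HAK24 fell, with 2.13, 0.908 and 1.06 FPKM in N deficiency, against 9.65, 8.57 and 6.33 FPKM in the control, while potassium transporter 1, LOC100279933, rose, with 3.67, 3.88 and 4.25 FPKM in N deficiency, against 0.6, 0.587 and 1.13 FPKM in the control. Sulfate transporter 2.2, gpm291, averaged 35.7 ± 4.56 FPKM in N deficiency and 17.3 ± 2.15 FPKM in the control, and sulfate transporter 3.5, LOC100382058, averaged 7.4 ± 0.343 FPKM in N deficiency and 25.5 ± 7.02 FPKM in the control, the first higher and the second lower. Of 93 tested auxin genes 11 rose (11.8%), 5 fell (5.4%, against 7.9% over all tested genes) and 77 did not pass. Leaving out 1 library left between 6 and 14 higher and between 1 and 5 lower. The auxin response factor ARF28 rose, with 22.9, 21.1 and 27.1 FPKM in N deficiency, against 8.65, 9.35 and 6.55 FPKM in the control (log2 fold change 1.43 ± 0.17, adjusted p = 0.002), and the efflux carrier PINY fell, averaging 15.9 ± 0.787 FPKM in N deficiency and 54 ± 17.3 FPKM in the control.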
